A study of Homo sapiens with 6 samples.

Results

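Cultures of the human colon cancer line HCT116 were transfected with siH19-1, an siRNA directed at H19, and compared with cells that received a control siRNA labelled si(-). The comparison uses 4 of the 6 expression arrays of the series, 2 for each of these groups. A second siRNA against the same RNA, siH19-2, fills the other 2 arrays and serves to test where the response to siH19-1 differed from it. Its arrays also enter the reported fit, in which all 6 arrays together give the spread behind the p-values. Every group received siRNA at 50 nM with Lipofectamine RNAiMAX for 48 h, so the controls share the transfection. The titles call the arrays of a group biological replicates, and nothing further says how the cultures were kept apart, so p-values measure the spread between these arrays. The sources used here give no siRNA sequences, and all results come from a single cell line.

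H19 is an imprinted long noncoding RNA, made from the maternal chromosome in the fetus and made again in many tumours. It carries the precursor of miR-675 and has been described as binding let-7 microRNAs. An siRNA guides the Argonaute complex to a matching RNA, which is cut, and it can also lower other RNAs through its seed, which is why studies use more than 1 siRNA against a target. In the colon epithelium, Wnt and Notch signals keep cells undifferentiated, and adhesion and surface receptors set how cells answer their surroundings.

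Each array gave a log2 signal for 67528 transcript clusters, the gene-level units of the array, and 24721 of them had a signal of at least 5 in at least 2 of the 6 arrays and were tested. Of those, 11715 carried 1 gene symbol, which makes 11179 genes when the cluster of highest mean stands for each gene. Array medians over clusters were 4.1 to 4.2, and the 2 siH19-1 arrays correlated at 0.9945, the 2 control arrays at 0.9925, and a control with a siH19-1 array at 0.9845 to 0.9873. Of 12 intestinal epithelial markers, 5 were expressed (EPCAM, KRT8, KRT18, KRT19 and CDH1), while CDH17, VIL1, CDX1, CDX2, LGALS4, GPA33 and PHGR1 lay at mean signals of 3.50 to 4.22, below the minimum of 5. None of 8 fibroblast, 7 endothelial and 7 muscle and nerve markers had a mean above 5, and of 9 immune markers only CD68, a lysosomal membrane protein used as a macrophage marker, did.

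No fall of H19 was seen in the siH19-1 arrays. The cluster that the annotation gives to H19 and MIR675 read 4.82 and 5.02 in the control arrays, 4.90 and 4.99 with siH19-1 and 4.95 and 5.02 with siH19-2. The groups overlapped completely, at a signal near the minimum where a fall may not show. Between the means the log2 difference was 0.025, with an SE of 0.116 and a 95% interval from -0.26 to 0.31 (limma adjusted p = 0.938). Its sign turned under 2 of the 3 other scalings. Directions below therefore rest on the array labels.

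Across genes, siH19-1 raised 409 and lowered 574 of 11179, which is 8.79% past the threshold, a limma p adjusted by Benjamini-Hochberg of 0.05. The higher genes make up 3.66% and the lower genes 5.13% of all genes tested, and these shares are the background for every count of higher and lower genes below. At cluster level 1537 of 24721 passed (6.22%), 656 higher (2.65%) and 881 lower (3.56%). Scaling to the rows that are not transcript clusters changed the split to 628 higher and 1473 lower. In a fit on the 4 control and siH19-1 arrays alone, without the siH19-2 arrays, 557 clusters passed. Of the 983 genes, 281 had a fold of at least 2, with 127 higher and 154 lower. The median size of a called change was 0.81 on the log2 scale, the smallest was 0.44, and the median log2 fold change of all genes was -0.035. All 983 genes had control and siH19-1 arrays that did not overlap, which was also the case for 59.7% of all genes tested. No cluster passed when either siH19-1 array was left out (limma; 3939 without replicate 1 and 3805 without replicate 2 had an unadjusted p under 0.05). The lowest adjusted p were then 0.0897 and 0.0666, in fits that take the lone siH19-1 array to vary like the other groups. The median size of the 983 changes was 0.79 and 0.82 in these fits. Without control replicate 1 there were 257 clusters, 142 higher and 115 lower, and without control replicate 2 there were 770, 257 higher and 513 lower. Each siH19-2 array, left out in turn, gave 551. Leaving out 1 array could not turn the direction of any of the 983 genes, because their control and siH19-1 arrays did not overlap. The other filters, the fit without trend, the replicate block and the fit on 4 arrays leave the fold change as it is. Only the other scalings could turn a direction, and 0 of the 983 did, with the smallest called change at 0.44.

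**Figure D1:**
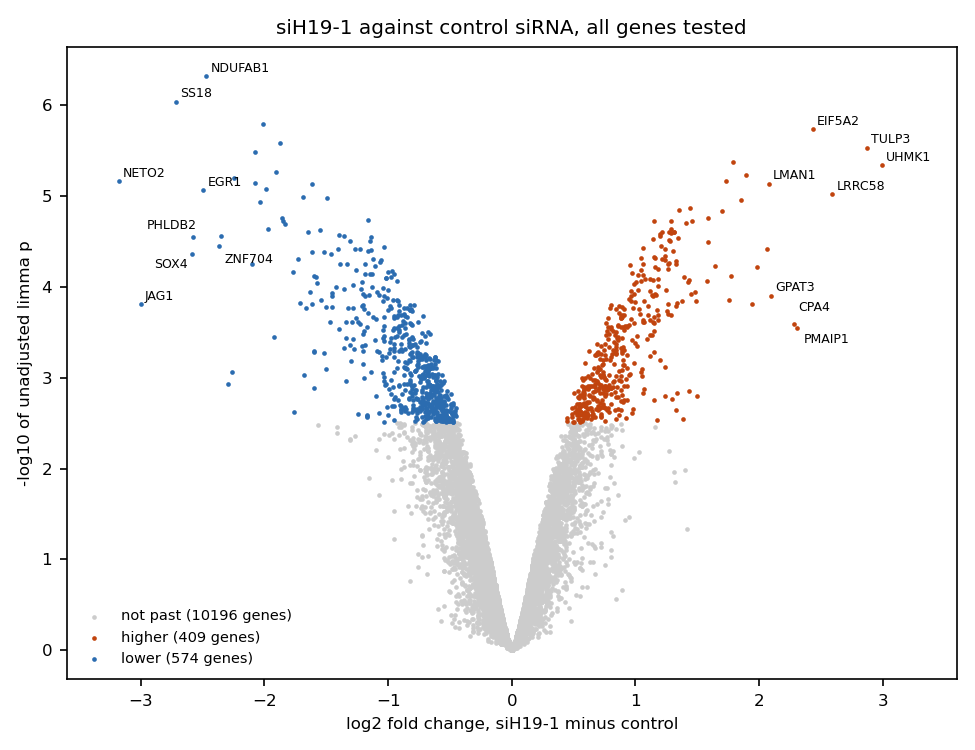
Each point is 1 of 11179 genes, with the log2 fold change of siH19-1 minus control on the x axis and minus log10 of the unadjusted limma p on the y axis. The 409 higher genes are red and the 574 lower genes blue. Labels mark the 8 largest changes on each side, leaving out uncharacterised loci and small RNA genes, from UHMK1 at 3.00 to NETO2 at -3.18.

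Among genes, which are clusters with 1 symbol, the largest rise was that of UHMK1. Rankings of the largest changes leave out uncharacterised loci and small RNA genes. UHMK1 encodes a serine/threonine kinase with an RNA-binding motif that acts on splicing factors. Its signal was 8.47 and 8.96 in the control arrays, 11.78 and 11.64 with siH19-1, and 10.25 and 10.18 with siH19-2. The siH19-1 arrays were the highest, the siH19-2 arrays lay between, and no groups overlapped. With siH19-1 the log2 fold change was 3.00 (SE 0.18, limma adjusted p = 0.00728), a 7.97-fold rise. Above it stood 3 clusters with no symbol, at 3.08 to 3.72. TULP3, an adaptor that carries membrane proteins into the primary cilium, went from 8.86 and 9.03 to 11.75 and 11.88, a 7.31-fold rise. LRRC58 went from 8.85 and 9.33 to 11.75 and 11.61, with siH19-2 at 11.65 and 11.63. Both siRNAs thus read alike for LRRC58 and apart for TULP3, which stood at 10.20 and 10.57 with siH19-2.

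EIF5A2, a translation factor that carries the modified residue hypusine, read 6.43 and 6.47 in control arrays and 9.03 and 8.74 with siH19-1. CPA4, a secreted carboxypeptidase, read 7.11 and 6.56 in control arrays and 9.48 and 8.75 with siH19-1. For both genes the siH19-2 arrays stayed below every siH19-1 array, at 6.85 and 6.78 for EIF5A2 and at 6.76 and 6.65 for CPA4. The log2 fold changes with siH19-1 were 2.44 for EIF5A2 (SE 0.13) and 2.28 for CPA4 (SE 0.29). PMAIP1, which encodes the pro-apoptotic BH3-only protein NOXA, rose by 2.31 from 7.70 and 6.83 to 9.63 and 9.52. The other 9 of the 15 largest rises ran from 2.10 for GPAT3, an acyltransferase of glycerolipid synthesis, to 1.78 for GALNT1, which starts mucin-type O-glycosylation. Among them were LMAN1 (2.08), a cargo receptor between the endoplasmic reticulum and the Golgi, the receptor kinase AXL (2.06) and ENPP5 (1.98). They also held POMK (1.94), which modifies dystroglycan's sugar chain, CARNMT1 (1.89), a carnosine methyltransferase, and the translation initiation factor EIF1AX (1.85). EFR3A, a plasma membrane anchor of a phosphatidylinositol kinase, rose by 1.78.

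The largest fall was that of NETO2, an auxiliary subunit of kainate receptors in neurons. It read 9.96 and 9.37 in control arrays, 6.57 and 6.40 with siH19-1, and 7.65 and 7.79 with siH19-2. The 3 groups did not overlap, with siH19-1 the lowest, and the log2 fold change was -3.18 (SE 0.21, limma adjusted p = 0.00728). JAG1, a Notch ligand, went from 10.21 and 9.12 to 6.65 and 6.68, and its control arrays lay further apart than those of most named genes. Its log2 fold change was -3.00 (SE 0.34), beside 5.98 and 6.24 with siH19-2.

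SS18, a subunit of the BAF chromatin remodelling complex, read 11.70 and 11.56 in control arrays and 8.83 and 9.0 with siH19-1. With siH19-2 it read 11.84 and 11.73, at or above the control arrays. SMARCB1, a core subunit of the same complex, read 9.24 and 9.18 in control arrays, 7.04 and 7.22 with siH19-1 and 8.33 and 8.61 with siH19-2. The siH19-1 arrays were thus the lowest for both subunits, with log2 fold changes of -2.71 (SE 0.12) for SS18 and -2.08 (SE 0.14) for SMARCB1. The other large falls included SOX4 (-2.59), a transcription factor of progenitor cells, EGR1 (-2.50), an immediate-early factor, and DUSP6 (-2.29), a phosphatase that turns off ERK. NDUFAB1 (-2.47) is the mitochondrial acyl carrier protein and MKX (-2.25) a homeobox factor of tendon. PHLDB2 (-2.58) anchors microtubules at the cell cortex, FNBP1L (-2.10) links membrane curvature to actin, and PPFIBP1 (-2.08) encodes a liprin. The zinc finger gene ZNF704 (-2.37) and ARRDC4 (-2.36), an arrestin-domain protein, were among them too. ADAM19, a membrane metalloprotease, read 10.26 and 9.09 in control arrays and 7.42 and 7.41 with siH19-1. Its log2 fold change of -2.26 became -1.68 without control replicate 1 and -2.85 without control replicate 2.

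**Figure D2:**
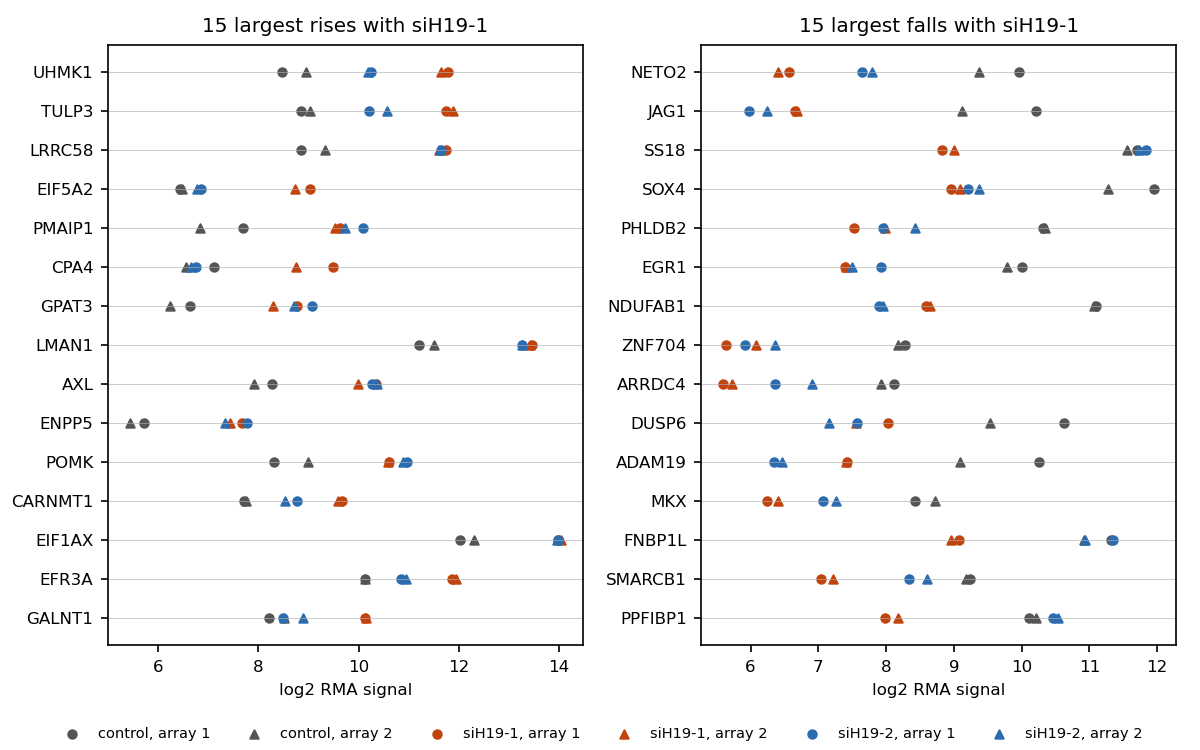
Log2 signals of the 15 largest rises (left) and falls (right) with siH19-1 in all 6 arrays, where colour is the group and shape the replicate. Uncharacterised loci and small RNA genes were left out of the ranking. Every siH19-1 point lies outside the control points, and for SS18, FNBP1L and PPFIBP1 the siH19-2 points lie with or above the control points while the siH19-1 points lie about 2 log2 units or more below.

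The direct test of siH19-2 against siH19-1 called 2519 of 11179 genes (22.5%) and 4495 of 24721 clusters (18.2%). Of the 983 genes that passed with siH19-1 against control, 440 also passed in that test. In 370 of them the siH19-2 arrays lay back toward the control or past it, and in 70 they lay further from the control in the same direction as siH19-1. In 43 genes siH19-2 was itself called on the other side of the control, in a comparison that shares the control arrays and called 2990 genes (26.7%). Both tests use the same siH19-1 arrays, and the 983 genes were picked by their distance from control in those arrays. The share of 440 in 983 therefore cannot be read against 22.5%. For the same reason 370 against 70 cannot be read as a weaker response to siH19-2. The same limit holds for the directions among the largest rises and falls that follow. Genes called in both tests made up 3.94% of all genes tested. Of the 15 largest rises, UHMK1, TULP3, EIF5A2, CPA4, CARNMT1, EFR3A and GALNT1 differed between the siRNAs. Relative to siH19-1, the log2 difference of siH19-2 was -2.07 for EIF5A2, -2.41 for CPA4 and -1.44 for GALNT1, with limma adjusted p of 0.00308, 0.00709 and 0.00775. Of the 15 largest falls, NETO2, SS18, NDUFAB1, ARRDC4, MKX, FNBP1L, SMARCB1 and PPFIBP1 differed. In 7 of these 8 siH19-2 read higher than siH19-1, by 2.87 for SS18, 2.42 for PPFIBP1 and 2.12 for FNBP1L. NDUFAB1 differed the other way, at 7.89 and 7.96 with siH19-2 against 8.59 and 8.64 with siH19-1 and 11.10 and 11.07 in control arrays.

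A set of 57 gene lists covers surface, secreted, regulator and pathway genes. The chart of calls per list shows 56 of these, each with its share of higher and lower genes beside that of all genes. The sign of a list's median turned under another scaling for 21 of the 57, whose medians lay between -0.025 and 0.068, close to the -0.035 of all genes. For these 21 the counts of called genes are given below without the median. Under scaling to the non-cluster rows, 7 lists that had only rises gained falls. These were 2 falls each among adhesion molecules, bHLH factors, antigen presentation genes and p53 targets, 1 among NF-kB and interferon genes, 5 among transporters and 6 among SMAD, TGF-beta target and YAP-TEAD genes.

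**Figure D3:**
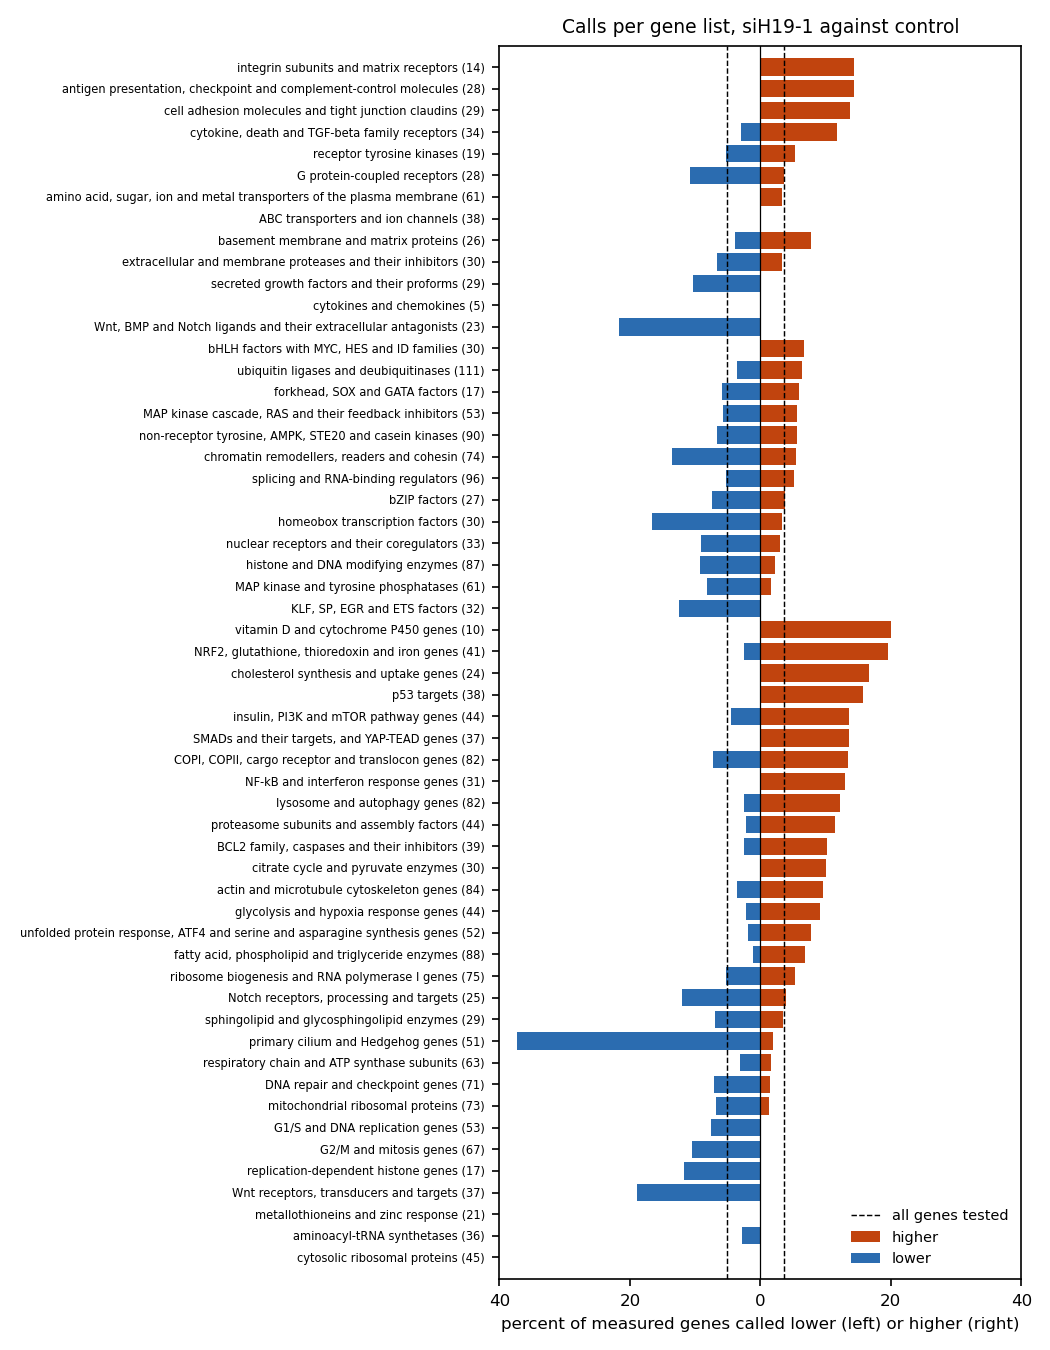
Percent of each list's measured genes called higher (red, right) or lower (blue, left) with siH19-1, with the number measured in brackets. Dashed lines mark all genes tested, at 3.66% higher and 5.13% lower, and the cilium list stands out with 19 of 51 lower.

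Among surface genes, adhesion molecules that passed were all higher, 4 of 29 measured and 0 lower. CDH1, E-cadherin, which holds epithelial cells together, read 6.62 and 7.0 in control arrays, 8.25 and 8.24 with siH19-1 and 9.92 and 9.87 with siH19-2. The 3 groups did not overlap, and with siH19-1 the log2 fold change was 1.44 (SE 0.15, limma adjusted p = 0.0107). ALCAM (1.04), an immunoglobulin-type adhesion molecule, also stood higher again with siH19-2, while MCAM (0.62) and the tetraspanin CD63 (0.61) did not differ between siRNAs past the threshold. Of 14 integrins and matrix receptors, 2 rose, the syndecan SDC4 by 1.13 and the integrin subunit ITGAV by 0.90. Both stood higher with siH19-2 than with siH19-1 in the direct test.

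Receptors moved in both directions. Of 34 cytokine, death and TGF-beta family receptors, 4 rose and 1 fell, with a list median of 0.125. IL6ST, the shared signalling chain gp130 of the IL-6 family, read 7.95 and 7.99 in control arrays, 9.21 and 9.30 with siH19-1 and 8.31 and 8.44 with siH19-2. OSMR, which pairs with gp130 to bind oncostatin M, read 9.67 and 9.31, then 10.64 and 10.29, with siH19-2 at 9.73 and 9.50. For both chains the siH19-1 arrays were the highest of the 6, and the difference from siH19-2 passed (limma adjusted p = 0.00719 and 0.0334). TGFBR2, the type II TGF-beta receptor, rose by 1.22 and the IL-13 receptor chain IL13RA1 by 0.57, whereas the death receptor TNFRSF21 fell by 1.60. Among 19 receptor tyrosine kinases, AXL rose, from 8.28 and 7.92 to 10.35 and 9.98, and IGF1R, the receptor of insulin-like growth factors, fell by 1.14, from 7.17 and 7.03 to 5.91 and 6.02.

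Of 28 G protein-coupled receptors, 1 rose (GPR180, 1.15) and 3 fell, with a list median of -0.22. The Wnt receptors FZD3 (-1.40) and FZD6 (-1.45) fell, FZD6 from 10.02 and 9.66 to 8.39 and 8.39. The adhesion receptor ADGRF1 read 9.30 and 8.47 in control arrays, 7.35 and 6.90 with siH19-1 and 9.29 and 8.70 with siH19-2, so that only the siH19-1 arrays were low. Transporters of the plasma membrane gave 2 higher and 0 lower of 61, the glucose transporter SLC2A3 (1.20) and the transferrin receptor TFRC (1.01), which takes up iron. TFRC stood at 13.31 and 13.13 with siH19-1 against 12.31 and 12.11 in control arrays and 12.26 and 12.13 with siH19-2. None of 38 ABC transporters and ion channels passed with limma (9 at an unadjusted p under 0.05), and STIM2 (-0.50) and PANX1 (0.41) had the smallest p. Of 28 antigen presentation, checkpoint and complement-control genes, 4 rose and 0 fell, with a median of 0.21. These were HLA-C (0.96) and HLA-B (0.84) of MHC class I, TAP1 (0.68), part of the transporter that supplies its peptides, and the stress ligand MICA (0.65). HLA genes are close relatives, and probes may not separate them.

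Genes that passed in the growth factor list and in the list of Wnt, BMP, Notch and guidance ligands were lower in every case. None of 29 growth factors rose and 3 fell. BMP4, a TGF-beta family ligand, read 9.77 and 9.30 in control arrays, 8.01 and 8.12 with siH19-1 and 8.23 and 8.45 with siH19-2, a log2 fold change of -1.47 (SE 0.18, limma adjusted p = 0.0156). FGF9 fell by 1.25 and PDGFC by 0.56. For PDGFC the siRNAs pointed apart, since it read 6.48 and 6.66 in control arrays, 5.99 and 6.04 with siH19-1 and 7.59 and 7.43 with siH19-2. Of 23 Wnt, BMP, Notch and guidance ligands and their partners, 5 fell and 0 rose, with a median of -0.05. Beside JAG1 these were TWSG1 (-1.28), a BMP-binding protein, WLS (-0.96), which Wnt ligands need for secretion, the semaphorin SEMA3A (-1.16) and the ephrin EFNB2 (-0.80). SEMA3A was at 7.29 and 7.26 in control arrays, 6.11 and 6.12 with siH19-1 and 7.18 and 7.25 with siH19-2, lowest in both siH19-1 arrays.

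Of 26 basement membrane and matrix genes, 2 rose and 1 fell. The matricellular protein THBS1 rose by 1.06 and the laminin chain LAMC1 by 1.17, while LAMB1, which assembles with LAMC1 in laminin, fell by 0.55. LAMC1 read 9.62 and 9.54 with siH19-1, above 8.54 and 8.28 in control arrays and 8.41 and 8.51 with siH19-2. Among 30 extracellular and membrane proteases and inhibitors, ADAM9 rose by 0.70 and ADAM19 and ADAM22 (-0.58) fell. CPA4, described above, was not on this list. Of 48 listed cytokines and chemokines 5 were measured and 0 passed with limma (1 at an unadjusted p under 0.05). IL32 (0.24) and CXCL16 (-0.19) had the smallest p.

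Transcription factor families gave more falls than rises in the homeobox and KLF, SP, EGR and ETS lists. Of 30 homeobox factors 1 rose and 5 fell, with a median of -0.16. MKX, described above, was not on this list. MSX1 rose from 6.83 and 6.69 to 7.79 and 7.99 and stood at 6.32 and 6.49 with siH19-2. ADNP (-0.88), HOXB8 (-0.60), HOXB6 (-0.61), HOXB9 (-0.56) and MEIS2 (-0.55) fell, 3 of them of the HOXB cluster that sets position along the body axis. Of 32 KLF, SP, EGR and ETS factors 4 fell and 0 rose, with a median of -0.27. Beside EGR1 these were the ETS factors ETV1 (-1.26) and ETV6 (-0.78) and KLF13 (-0.51). Forkhead, SOX and GATA factors gave 1 rise, FOXN2 (0.88), and the fall of SOX4 among 17. Nuclear receptors and coregulators gave 1 rise and 3 falls of 33, with a median of -0.08. The orphan receptor NR2F1 fell from 8.47 and 8.14 to 6.61 and 6.73. The dioxin receptor AHR (-0.86) and NR2F6 (-0.58) fell too, and NR6A1 rose by 1.33. Of 30 bHLH factors, CLOCK and BHLHE40 (0.98), both of the circadian clock, rose and 0 fell. CLOCK read 10.86 and 11 in control arrays, 12.21 in both siH19-1 arrays and 10.98 and 11 with siH19-2. Among 27 bZIP factors CREM (0.74) rose, and ATF7 (-1.05) and JUND (-0.60) fell. ATF7 went the other way with siH19-2, from 8.03 and 7.72 in control arrays to 8.49 and 8.40, against 6.96 and 6.69 with siH19-1.

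Chromatin genes leaned toward falls. Of 74 remodellers, readers and cohesin genes, 4 rose and 10 fell, 18.9% in all beside 8.79% of genes tested. Their median was -0.14 (-0.22 to -0.11 over the scalings). The counts depended on the fit, with 2 rises and 4 falls with no filter and 2 rises and 6 falls with median centring. In the fit on the 4 control and siH19-1 arrays alone 0 rose and 4 fell. Under scaling to the non-cluster rows 4 rose and 14 fell. Beside SS18 and SMARCB1, MTA2 of the NuRD complex fell from 10.23 and 10.07 to 8.58 and 8.62, with siH19-2 at 10.22 and 10.01. The siH19-1 arrays alone were low for MTA2, as they were for SS18. The BET reader BRD3 fell by 1.18, and PHC1, CTCF, HMGN2, BAZ2B, PBRM1 and BAZ1B fell by 0.61 to 0.75. The 4 that rose were the Polycomb subunit PHC3 (0.91), CHD1 (0.80), ARID3A (0.72) and SMARCA5 (0.66). Of 87 histone and DNA modifying enzymes, 2 rose and 8 fell, with a median of -0.07. The lysine methyltransferase SMYD2 fell from 8.03 and 7.66 to 6.01 in both siH19-1 arrays, with siH19-2 at 7.40 and 7.27. SETD7, another lysine methyltransferase, rose from 7.30 and 7.43 to 8.90 and 8.81. The methyltransferase NSD2 (-1.0), the acetyltransferases KAT6A (-0.86), KAT6B (-0.79) and KAT5 (-0.69), the demethylase PHF2 (-0.82), the deacetylase HDAC2 (-0.60) and EHMT1 (-0.54) fell, and the acetyltransferase HAT1 (0.82) rose.

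Signalling enzymes gave calls in both directions. Among 61 phosphatases, MAP kinase and tyrosine phosphatases among them, 1 rose (SSH2, 1.14, which activates cofilin) and 5 fell, with a median of -0.07. PPP3CA, the catalytic subunit of calcineurin, fell from 14.07 and 13.78 to 12 and 12.15, with siH19-2 at 13.30 and 13.43. DUSP6, DUSP18 (-0.76), PTPRS (-0.71) and PTPRG (-0.97) were the other falls. Of 53 genes of the MAP kinase cascade and its feedback inhibitors 3 rose and 3 fell, with a median of -0.05. MAPK6 (1.26), RASA2 (1.15) and the RAS exchange factor SOS1 (0.76) rose, and MAP4K4 (-1.03), MAPKAPK5 (-0.63) and the RAS inhibitor SPRED2 (-0.70) fell. Of 90 other kinases 5 rose and 6 fell, with a median of -0.03. Beside UHMK1 the rises were PTK2 (1.04), the focal adhesion kinase, the AMPK subunit PRKAB2 (0.68), FRK (0.92) and HIPK2 (0.89). FER (-0.90) had the smallest p of the falls, which also held PAK4, PRKACA, DYRK1A, STK24 and STK38L at -0.60 to -0.68.

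Of 111 ubiquitin ligases and deubiquitinases 7 rose and 4 fell. CBL, a ligase that turns off receptor tyrosine kinases, read 9.09 and 9.26 in control arrays, 10.92 and 10.89 with siH19-1 and 11.11 and 11.15 with siH19-2. The deubiquitinase OTUD4 rose by 1.36 and RNF213 by 0.86, and USP54 fell by 0.56. BIRC2, FBXO22, BRCC3 and USP37 also rose, and MARCHF5, SMURF2 and CUL2 fell. Of 96 splicing and RNA-binding regulators 5 rose and 5 fell, with a median of -0.12. IGF2BP3, a fetal RNA-binding protein and let-7 target, fell from 10.49 and 10.41 to 8.92 and 9.20, and TAF15 (-1.77) and MSI2 (-1.57) fell. All 3 stood nearer to the control with siH19-2, with limma adjusted p for the difference of 0.0298, 0.00983 and 0.0174. The deadenylase scaffold CNOT1 (1.06), the decapping enzyme DCP2 (1.38), RC3H2 (1.27), YTHDF3 and DDX3X rose. PTBP2 fell by 0.74 but stood at 11.13 and 10.99 with siH19-2, above 9.18 and 9.15 in control arrays.

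The primary cilium list had the highest share of calls of the 57 lists. The primary cilium is a single antenna built on the mother centriole, in which intraflagellar transport (IFT) trains carry cargo and Hedgehog receptors signal. Of 51 measured genes of 67 listed, 19 fell and 1 rose, 39.2% in all beside 8.79% of genes tested. The median log2 fold change was -0.38 beside -0.035 for all genes, and it lay between -0.45 and -0.34 under the other scalings. In all, 46 of the 51 had a log2 fold change below 0 with siH19-1 and 34 with siH19-2. The list median with siH19-2, against the same control arrays, was -0.2. The direct test between the siRNAs called 13 (25.5%, beside 22.5% of all genes). The count of lower genes was 2 without control replicate 1, 9 without control replicate 2, and 0 without either siH19-1 array, while the median stayed between -0.45 and -0.36.

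By role, 6 of 10 measured subunits of IFT complex B fell. TULP3, which was grouped with complex A, rose, while 2 of the 5 genes of complex A fell. The falls came to 4 of 11 at the transition zone, the gate at the cilium base, 2 of 4 motor genes, 2 of 10 of the BBSome group, 2 of 7 at the basal body and 1 of 3 of the Hedgehog pathway. This division by role was made after the values were seen. TCTN2, a transition zone protein, read 9.35 and 8.91 in control arrays, 7.39 and 7.42 with siH19-1 and 7.45 and 7.50 with siH19-2. Both siRNAs read alike for it, with a log2 fold change of -1.72 with siH19-1 (SE 0.16, limma adjusted p = 0.00947). RPGRIP1L, a scaffold of the transition zone, went from 7.71 and 7.77 to 6.63 and 6.72, with siH19-2 between at 7.22 and 7.10. DYNC2H1, the heavy chain of the motor that returns cargo to the cilium base, went from 5.74 and 5.66 to 4.65 and 4.83, with siH19-2 at 5.42 and 5.41. TMEM67, a receptor-like protein of the transition zone, read 9.45 and 9.40, then 8.54 and 8.45, with siH19-2 at 9.60 and 9.43. ARL3, a GTPase that releases lipidated cargo in the cilium, read 8.50 and 8.64, then 7.37 and 7.70, with siH19-2 at 8.62 in both arrays. The low arrays of TMEM67 and ARL3 were those of siH19-1, and the difference between siRNAs passed for both (limma adjusted p = 0.0063 and 0.00846). The complex A genes WDR19 (-1.04) and WDR35 (-0.81) fell. So did the complex B genes IFT88 (-0.80), IFT22 (-0.77), IFT57 (-0.72), IFT52 (-0.57), IFT172 (-0.53) and IFT81 (-0.49). KIF3B (-0.70), a subunit of the outbound motor, the Hedgehog receptor PTCH1 (-0.69), TCTN1, CCP110, BBS1 and INPP5E completed the 19.

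**Figure D4:**
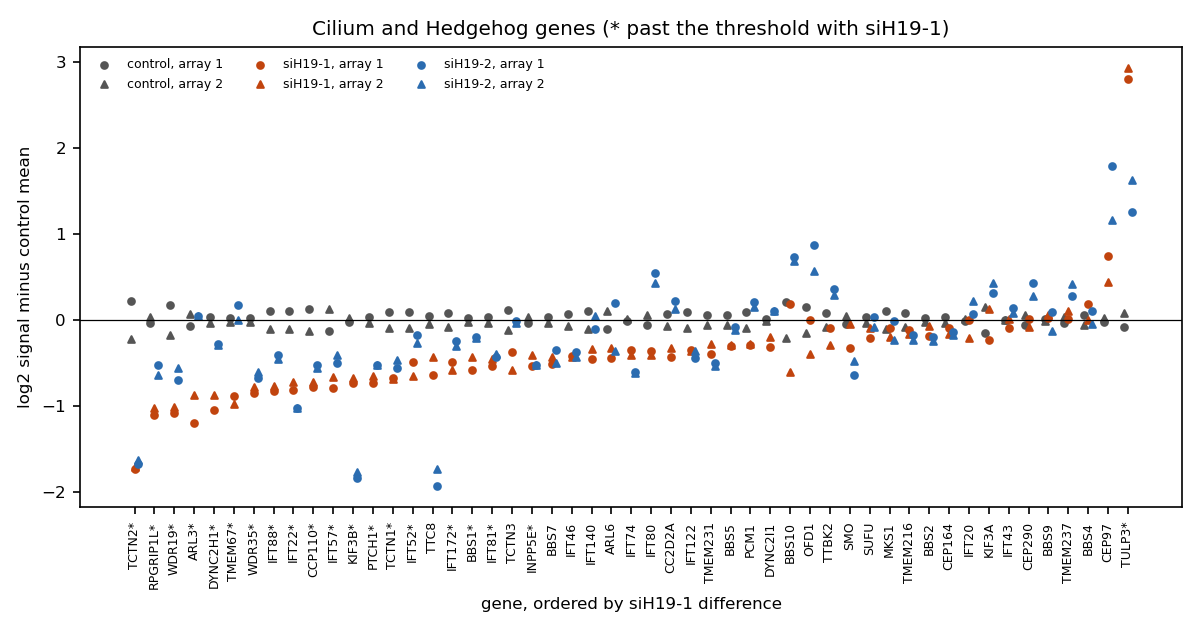
For the 51 measured cilium and Hedgehog genes, each array's log2 signal minus the control mean, ordered by the siH19-1 difference and with 6 arrays per gene. The siH19-1 points lie below the control points for most genes, TULP3 stands alone near 2.87 at the right, and for TMEM67 and ARL3 the siH19-2 points lie at the control level.

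Many cilium genes carry an X-box in the promoter, the element that RFX factors bind. The 250 bases before the gene start were searched on both strands for GTNNCC followed by GGNNAC, 0 to 3 bases apart, a search chosen after the expression values were seen. A match lay in 5 of 45 list members with a promoter in the RefSeq table (11.1%), in 2 of the 15 lower ones, and in 3.25% of all 27305 promoters and 3.54% of the 8244 of genes tested. The 2 lower genes with a match, subunits of the IFT trains, are shown with the match in capitals, from the RefSeq table of build GRCh38.p14. IFT57 is on the minus strand at chr3:108222425-108222478 and WDR19 on the plus strand at chr4:39182442-39182503, and the match ends 17 bases before the start of IFT57 and 50 before that of WDR19.
IFT57: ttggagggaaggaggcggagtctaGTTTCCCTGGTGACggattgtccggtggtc
WDR19: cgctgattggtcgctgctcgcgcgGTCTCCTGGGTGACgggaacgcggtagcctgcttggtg
The other matches were those of ARL6, TMEM231 and TCTN3, which had log2 fold changes of -0.39, -0.34 and -0.48 and did not pass. WDR19 read 6.96 and 6.62 in control arrays and 5.71 and 5.78 with siH19-1, and IFT57 read 7.86 and 8.12, then 7.20 and 7.33, without overlap in either gene.

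Of 37 Wnt receptors, transducers and targets, 7 fell and 0 rose, with a median of -0.24 (-0.31 to -0.20 over the scalings). Wnt ligands bind Frizzled receptors together with LRP5 or LRP6 and act through beta-catenin and TCF factors. The falls were the receptors FZD3 and FZD6, the coreceptors LRP6 (-1.26) and LRP5 (-0.92), the nuclear factor TCF7L2 (-0.52) and the targets SOX4 and BMP4. LRP6 read 9.92 and 9.83 in control arrays, 8.42 and 8.81 with siH19-1 and 10.04 and 9.99 with siH19-2. Of the 7, FZD3, LRP6, LRP5 and TCF7L2 differed between the siRNAs, and for the latter 3 the siH19-2 arrays lay above the siH19-1 arrays. In the Notch list of 25 genes, 1 rose, the inhibitor NUMB (0.56), and 3 fell, JAG1, the coactivator MAML2 (-0.67) and the gamma-secretase subunit APH1A (-0.66). Of 37 SMAD, TGF-beta target and YAP-TEAD genes 5 rose and 0 fell, with a median of 0.10. Under scaling to the non-cluster rows 5 rose and 6 fell, and with the filter at 6 there were 5 rises and 3 falls. The 5 rises were AXL, the Hippo regulators NF2 (0.83) and AJUBA (0.73), the coactivator YAP1 (1.18) and SMAD5 (0.64). Of 31 NF-kB and interferon response genes 4 rose and 0 fell, with a median of 0.14. STAT3, which carries the gp130 signal to the nucleus, read 8.87 and 8.60 in control arrays and 10.43 and 10.44 with siH19-1. It read 10.43 and 10.44 with siH19-2 as well. DDX60 (0.84), the RNA sensor TLR3 (0.65) and the NF-kB subunit REL (0.56) were the others.

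Cell cycle genes that passed were lower. G1/S and replication genes gave 4 falls and 0 rises of 53 (median -0.15) and G2/M and mitosis genes 7 falls and 0 rises of 67 (median -0.21), shares of 7.55% and 10.4% beside 8.79%. The G2/M list had 15 falls under quantile normalization, 19 under scaling to the non-cluster rows, and 19 falls and 1 rise with the replicate block. It had 6 falls with median centring, 2 with no filter and 2 in the fit on the 4 control and siH19-1 arrays alone. The G1/S list had 8 falls under scaling to the non-cluster rows, 2 with no filter and 2 in that fit on 4 arrays. The 4 G1/S falls were those of the replication kinase CDC7 (-1.13), CDC45 (-0.81), LIG1 (-0.77) and CCNE2 (-0.90). The 7 G2/M falls were those of the mitotic kinesin KIF18A (-1.31), SPC24 (-1.04), PLK4, BIRC5, MKI67, CENPA and CENPF. The medians with siH19-2, whose comparison shares the control arrays, were -0.63 for G1/S and -0.56 for G2/M. The direct test between the siRNAs called 27 of 53 G1/S genes (50.9%) and 17 of 67 G2/M genes (25.4%), beside 22.5% of all genes. Of 17 replication-dependent histone genes 2 fell, H1-4 (-0.74) and H2AC21 (-0.77), and all 17 lay below 0, from -0.80 to -0.12. Their median of -0.485 was the lowest of the 57 lists, beside -0.035 for all genes, and it was -0.885 with siH19-2. DNA repair and checkpoint genes gave 5 falls and 1 rise (NBN, 0.68) of 71, with a median of -0.13. BRIP1 (-1.15), H2AX (-1.27), XRCC1 (-1.09), FANCL (-0.67) and BRCA1 (-0.64) fell.

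Of 38 p53 targets 6 rose and 0 fell, with a median of 0.24 (0.18 to 0.29 over the scalings). RRM2B, the ribonucleotide reductase subunit that p53 induces, read 9.52 and 9.57 in control arrays, 10.82 and 10.84 with siH19-1 and 9.74 and 9.73 with siH19-2. CDKN1A, the cell cycle inhibitor p21, read 8.0 and 7.79, then 8.57 and 8.71, with siH19-2 at 8.40 and 8.34. Both genes were highest in the siH19-1 arrays, and the difference from siH19-2 passed for RRM2B (limma adjusted p = 0.00457) and did not for CDKN1A (0.182). CDKN1A rose by 0.74 with siH19-1 (SE 0.12, limma adjusted p = 0.0289). PMAIP1, TP53INP1 (0.94), FBXO22 (0.59) and TRIAP1 (0.78) also rose. The apoptosis list of 39 gave 4 rises and 1 fall. Cytochrome c (CYCS), which is released from mitochondria to activate caspases, rose by 1.76 from 9.61 and 10.17 to 11.65 in both arrays. PMAIP1, BNIP3 (0.98) and the inhibitor BIRC2 (0.65) rose, and the inhibitor BIRC5, survivin, fell by 0.66.

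The early secretory pathway moved in both directions. Of 82 genes of COPI and COPII coats, cargo receptors and the translocon, 11 rose and 6 fell, 20.7% beside 8.79%, with a median of 0.24 (0.17 to 0.27 over the scalings). LMAN1 read 11.20 and 11.51 in control arrays and 13.46 and 13.41 with siH19-1. The COPII coat subunits SEC24A (1.30), SEC24D (1.15) and SEC31A (0.70) rose, while SEC23A (-0.70) and the COPII GTPase SAR1A (-0.87) fell. Within the signal recognition particle, SRP72 went from 13.19 and 13.30 to 14.51 and 14.45, and SRP9 went from 10.13 and 9.87 to 8.84 and 8.48. The particle's subunits thus pointed opposite ways without overlap. SSR1 (1.18), the COPI subunit ARCN1 (1.09), MLEC (0.85), STT3B (0.60), SEC11C (0.63) and SRPRB (0.55) rose, and SEC61A1 (-0.67), COPG2 (-0.70) and YIPF6 (-0.58) fell. The direct test called 38 of the 82 between the siRNAs (46.3%), beside 22.5% of all genes. Under quantile normalization 19 of the 82 rose and 7 fell, and with median centring 8 rose and 6 fell. With no filter 7 rose and 2 fell. In the fit on the 4 control and siH19-1 arrays alone 5 rose and 2 fell. MLEC, a lectin of the endoplasmic reticulum, read 11.39 and 11.18 in control arrays, 12.10 and 12.16 with siH19-1 and 9.39 and 9.47 with siH19-2, on opposite sides of the control. In the unfolded protein response and ATF4 list 4 of 52 rose and 1 fell, with a median of 0.07. The oxidase ERO1A (1.33), the chaperone CANX (0.78), the ubiquitin ligase SYVN1 (0.94) and DNAJC3 (1.05) rose. PDIA3, a disulfide isomerase, fell from 13.18 and 12.98 to 12.33 and 12.13 and stood at 13.75 and 13.67 with siH19-2.

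Among 82 genes for lysosomes and autophagy, 10 rose and 2 fell. TAX1BP1, an autophagy receptor, rose by 1.46 from 9.31 and 9.28 to 10.73 and 10.77, and ATG12, which is joined to ATG5 when autophagosomes form, by 1.26. Another receptor, SQSTM1 (0.75), and the proton pump genes ATP6V1C1 (1.06), ATP6AP2 (1.11), ATP6V0C (0.58) and ATP6V1E1 (0.73) rose, as did LAMP2 (0.84), GLA (0.48) and LIPA (0.45). The cathepsin CTSZ (-0.72) and WIPI2 (-0.74) fell. CD68, which was listed as an immune marker, read 6.84 and 6.81 in control arrays, 7.97 and 7.71 with siH19-1 and 6.61 and 6.88 with siH19-2. Its log2 fold change was 1.01 (SE 0.14, limma adjusted p = 0.0205). The summed log2 signal of the 9 immune markers was 35.0 to 36.0 in control arrays and 36.8 to 36.9 with siH19-1, and the other 8 had means below 5. The summed log2 signal of the 12 epithelial markers was 81 to 81.3 in control arrays and 83.9 to 84.8 with siH19-1. The sums of the fibroblast markers were 30.5 to 31.1 and 31.3 to 31.4, those of the endothelial markers 25 to 25.4 and 25.5 to 25.9, and those of the muscle and nerve markers 27.1 to 27.6 and 28.0. Their part in the results was not tested.

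Of 41 NRF2, glutathione, thioredoxin and iron genes 8 rose and 1 fell, 22.0% beside 8.79%, with a median of 0.15 (0.09 to 0.17 over the scalings). NRF2 is a transcription factor that switches on antioxidant genes when its partner KEAP1 is modified. GCLM, the modifier subunit of the enzyme that limits glutathione synthesis, read 8.54 and 8.63 in control arrays, 10.23 and 10.22 with siH19-1 and 8.86 and 9.27 with siH19-2. The siH19-1 arrays were the highest, with a log2 fold change of 1.64 (SE 0.16, limma adjusted p = 0.00971), and the difference from siH19-2 passed (0.0092). FTL, the ferritin light chain that stores iron, went from 16.43 and 16.35 to 17.37 and 17.50, and ME1, malic enzyme, from 11.90 and 11.65 to 12.89 and 12.78. TXNRD1, thioredoxin reductase, went from 9.53 and 9.61 to 10.36 and 10.52, and it was higher again with siH19-2, at 10.67 and 10.97. TFRC, NQO2 (0.75), heme oxygenase HMOX1 (0.83) and glutathione reductase GSR (0.61) also rose, and TALDO1 of the pentose phosphate pathway fell by 0.80. TFRC, NQO2, HMOX1, FTL and GCLM differed between the siRNAs, each lower with siH19-2. Over the list the direct test called 19 of 41 genes (46.3%), beside 22.5% of all genes. The list median with siH19-2, against the same control arrays, was -0.15. Without control replicate 1 the list had 2 higher genes and without control replicate 2 it had 3.

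NRF2 binds the antioxidant response element. The letters TGACNNNGC, searched on both strands of the same 250 bases, lay in 6 of 32 list members with a promoter in the table (18.8%), in 3 of the 6 higher ones, and in 11% of all promoters and 12.3% of those of genes tested. The 3 higher genes with a match are shown with it in capitals. GCLM lies at chr1:93909432-93909488 on the minus strand, TXNRD1 at chr12:104215656-104215712 on the plus strand and ME1 at chr6:83431156-83431212 on the minus strand of GRCh38.p14, and in GCLM the match reads in the reverse direction.
GCLM: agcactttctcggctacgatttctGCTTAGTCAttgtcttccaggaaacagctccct
TXNRD1: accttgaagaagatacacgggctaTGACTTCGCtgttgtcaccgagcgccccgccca
ME1: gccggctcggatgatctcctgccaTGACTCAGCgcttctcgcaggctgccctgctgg
Matches also lay before GSTP1 (0.12), GSTO1 (-0.03) and PGD (-0.61), which did not pass. A like search of 22 cholesterol genes for TCACNCCAC, the sterol element, found 1 match, before SREBF2, and 0 in the 3 higher genes with a promoter in the table, beside 0.875% of all promoters.

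Metallothioneins are small proteins that bind zinc and copper. Of 21 genes of metallothioneins and zinc response, 0 passed with limma, 13 had an unadjusted p under 0.05, and the median was -0.23 (-0.30 to -0.21 over the scalings). The count depended on the fit, with 7 lower and 1 higher under scaling to the non-cluster rows, 4 lower and 1 higher under quantile normalization, 3 lower with the replicate block and 2 lower with the filter at 6. MT1F read 10.12 and 9.08 in control arrays, 7.94 and 8.12 with siH19-1 and 8.56 and 8.61 with siH19-2, and its log2 fold change of -1.57 had an adjusted p of 0.0511. MT1X read 11.62 and 10.74, then 9.94 and 9.88, with an adjusted p of 0.0595. The control arrays of both lay about as far apart as the groups lay from each other at their nearest. MT2A, at 17.27 and 16.71 in control arrays among the highest signals, read 16.30 and 16.23. The values of MT1G (-0.50), MT1E (-0.70), MT1H (-0.70), MT1B (-0.70), MT1M (-0.36), MT3 (-0.09) and MT4 (-0.23) lay below 0 as well, and the MT1 genes are so alike that probes may not separate them. The zinc sensor MTF1 stood at -0.46. Zinc transporters of the SLC30 family stood at 0.72 for SLC30A1, which metal induces, 0.38 for SLC30A7, 0.17 for SLC30A6 and 0.01 for SLC30A5. Those of the SLC39 family stood at -0.35 for SLC39A1, 0.36 for SLC39A14, 0.21 for SLC39A6, 0.10 for SLC39A4, 0.05 for SLC39A10 and 0.015 for SLC39A13.

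Proteasome genes moved apart between the siRNAs. Of 44 subunits and assembly factors, 5 rose and 1 fell with siH19-1, with a median of 0.30 (0.23 to 0.33 over the scalings), and the median with siH19-2, against the same control arrays, was -0.33. In all, 38 of 44 lay above 0 with siH19-1 and 34 of 44 lay below 0 with siH19-2. The direct test called 26 of 44 (59.1%), beside 22.5% of all genes. PSMD2, which holds ubiquitin receptors on the proteasome's regulatory particle, read 10.88 and 10.75 in control arrays, 11.44 and 11.54 with siH19-1 and 10.19 and 10.06 with siH19-2. The 3 groups did not overlap, with the control in the middle. PSMD12 read 11.62 and 11.63 in control arrays, 12.24 and 12.17 with siH19-1 and 10.90 and 10.88 with siH19-2, in the same order. The activators PSME4 (0.74) and PSME3 (0.56) and the subunit PSMD11 (0.66) rose, and PSMD6 fell by 0.57. The calls against control depended on the fit, with 0 higher genes under median centring, with no filter, in a fit on the 4 arrays alone and with any 1 array left out, and 12 under quantile normalization.

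**Figure D5:**
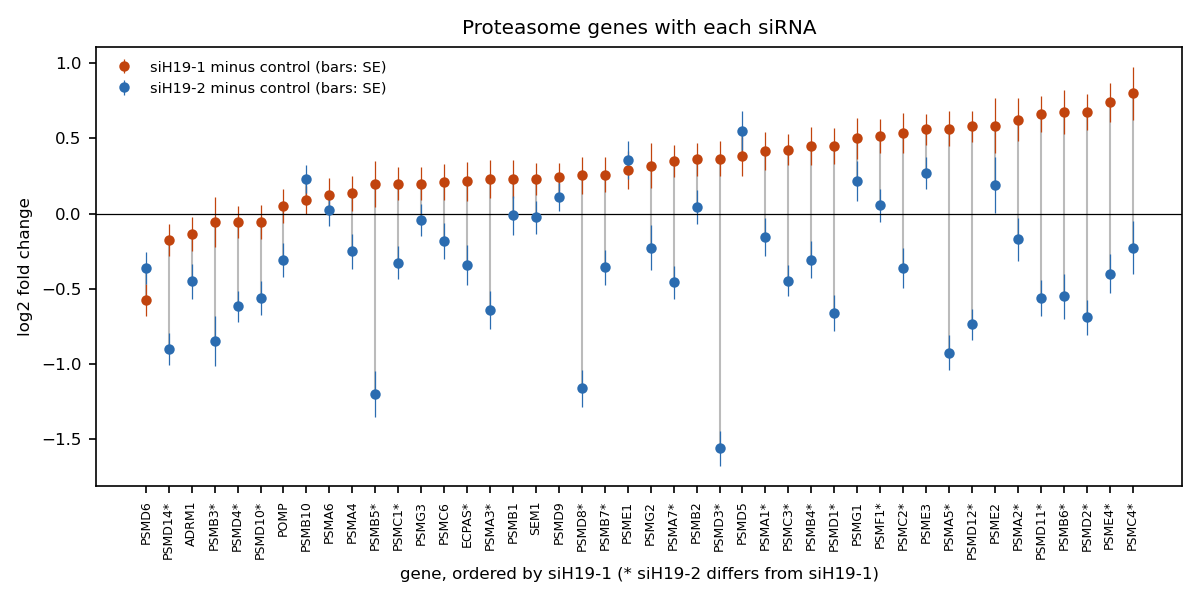
Log2 fold changes of 44 proteasome genes against control with siH19-1 (red) and siH19-2 (blue), with bars of 1 SE and an asterisk where the siRNAs differed by the direct test (26 genes). Most red points lie above 0 and most blue points below it.

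In lipid metabolism, of 24 cholesterol genes 4 rose and 0 fell, with a median of 0.14. HMGCS1, an early enzyme of the pathway, read 8.42 and 8.37 in control arrays and 9.75 and 9.56 with siH19-1. DHCR7 (0.83), the sensor partner INSIG1 (1.06) and SQLE (0.94) also rose. Of 88 fatty acid, phospholipid and triglyceride enzymes 6 rose and 1 fell, with a median of 0.10. ATP citrate lyase, ACLY, went from 12.17 and 12.02 to 13.25 and 13.18, with siH19-2 below the control at 11.73 and 11.58. GPAT3, ACADSB (0.88), the lipid droplet protein PLIN3 (1.33), LPCAT3 (0.68) and ACACA, which makes malonyl-CoA, rose, and GPAT4 (-0.55) fell. Of 29 sphingolipid enzymes SGPL1 (0.73) rose and CERK (-0.93) and B4GALT6 (-0.86) fell, with a list median of -0.06. Glycolysis and hypoxia genes gave 4 rises and 1 fall of 44, with a median of 0.09. BHLHE40, ERO1A, BNIP3 and ALDOC (0.79) rose, and hexokinase HK2 fell by 1.5. Among 30 citrate cycle and pyruvate genes the pyruvate dehydrogenase parts PDHX (1.21) and DLAT (0.71) and GLUD1 (0.70) rose and 0 fell. Of 10 vitamin D and P450 genes the hydroxylase CYP24A1, which degrades vitamin D, rose by 1.5 and DHCR7 was the other rise. CYP24A1 read 10.06 and 10.21 in control arrays, 11.25 and 12.02 with siH19-1 and 13.83 and 14.14 with siH19-2, so its siH19-1 arrays lay apart from each other and between the other groups.

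Genes of mitochondria and translation gave shares near the background or below it. The respiratory chain gave 1 rise (CYCS) and 2 falls (NDUFAB1 and ATP5MC2, -0.53) of 63. Of 73 mitochondrial ribosomal proteins 1 rose (MRPL19, 0.80) and 5 fell, with a median of -0.07. MRPL3 fell from 11.75 and 11.62 to 10.45 and 10.54, and MRPL11 (-1.06), MRPS21 (-0.88), MRPL50 (-0.64) and MRPS27 (-0.66) fell. Ribosome biogenesis gave 4 rises and 4 falls of 75. UTP6 (0.80), DDX52 (0.73), TSR1 (0.76) and LTV1 (0.56) rose, and DDX10 (-0.81), DDX21 (-0.79), DDX54 (-0.85) and BYSL (-0.48) fell. Of 45 cytosolic ribosomal proteins 0 passed with limma (2 at an unadjusted p under 0.05), and RPS3 (-0.28) and RPL7 (0.27) had the smallest p. Of 36 aminoacyl-tRNA synthetases NARS2 (-0.72) fell and 0 rose, with CARS2 (-0.49) next in p and a list median of -0.02.

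Of 44 insulin, PI3K and mTOR genes 6 rose and 2 fell. The kinase MTOR read 8.91 and 8.75 in control arrays, 9.70 and 9.58 with siH19-1 and 7.87 and 7.99 with siH19-2, on opposite sides of the control. EIF4EBP2 (1.39), which mTOR releases from the cap-binding factor, the kinase RPS6KB1 (0.92), PIK3C2A (0.81), the adaptor IRS1 (0.91) and PIK3R1 (0.74) rose, and IGF1R and MLST8 (-0.64) fell. Of 84 actin and microtubule genes 8 rose and 3 fell, and the direct test called 34 (40.5%, beside 22.5% of all genes). The rises numbered 2 under median centring and 12 under quantile normalization. ARPC1A, of the complex that branches actin, went from 11.78 and 11.57 to 13.07 and 12.94, with siH19-2 at 11.18 and 11.19. CSRP2, a LIM protein that binds actinin, went from 8.71 and 8.64 to 7.13 and 6.99, with siH19-2 lower still at 6.43 and 6.55. TPM2 (0.72), CFL2 (0.57), CTTN (0.56), MYL9 (0.75), LASP1 (0.70), VASP (0.48) and EZR (0.65) rose, and PFN2 (-0.70) and the gamma-tubulin TUBG1 (-0.88) fell.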

How the data were processed

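RNA of 6 HCT116 cultures was extracted with Trizol, labelled with biotin by the WT PLUS kit and read on 1 array each. The deposited values are log2 signals, which the authors made with Affymetrix Expression Console and RMA, per the submitters' processing notes. Neither tool version nor genome build is given in the sources used here. Groups and replicate numbers came from the titles. Of 70523 rows, 67528 were transcript clusters. Symbols came from the platform annotation and were updated through Entrez IDs with a RefSeq table. Clusters with several symbols (834) or none (12172) were tested and not named.

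Clusters with log2 of at least 5 in 2 of 6 arrays were fitted with limma 3.58.1 in R 4.3.3 (lmFit, eBayes with trend, a coefficient per group, all 6 arrays, 3 residual and 2.75 prior degrees of freedom). Tests were two-sided, with Benjamini-Hochberg adjustment over the 24721 clusters and a threshold of 0.05. An SE comes from this fit. The script was tested on simulated data. The number of arrays limits the precision. Named were H19, the 15 largest rises and falls, the 8 largest in each direction that differed from siH19-2, and all metallothionein and zinc genes. Up to 4 called members per list were named too (the 2 of smallest p where under 2 passed). The rankings of largest changes left out uncharacterised loci (LOC, orf, KIAA, FAM and LINC symbols) and microRNA, snoRNA and other small RNA genes. Other list members and CD68 were named after their values were seen. The comparison and the lists were chosen with earlier results of these data known, so lists are described by counts and medians. Alternatives changed the filter, the trend, the scaling, the arrays in the fit and the replicate block. The results of 1 list are not reported here.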

Additional observations from a re-analysis of the deposited data

Results flagged for a closer look

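Rows outside the transcript clusters were set apart from the comparison above. Of 2370 such rows that passed the same minimum, control probe sets among them, 40 passed the limma threshold with siH19-1 against control, 22 higher and 18 lower. That is 1.69% of these rows, beside 6.22% of the clusters tested. Over all 2995 rows outside the transcript clusters, with no minimum applied, the median shift was 0.02 on the log2 scale. The cause was not tested.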

How the results depend on the processing

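With siH19-1 against control, 1537 clusters passed. The count was 607 with no filter on low signal and 557 in a fit on the 4 arrays alone, and it ranged from 0 to 770 when 1 array was left out. It was 1217 with median centring, 1572 without the trend, 1817 with the filter at 6, 1983 with quantile normalization and 2101 with scaling to the non-cluster rows. For siH19-2 against siH19-1, 4495 passed, 2667 with no filter and 517 to 4760 with 1 array left out. For siH19-2 against control, 5203 passed, 3108 with no filter and 1285 to 3655 with 1 array left out. Scaling to the non-cluster rows changed the share of higher calls from 42.7% to 29.9%, from 53.7% to 74.4% and from 48.6% to 60.5% in these 3 comparisons. The median of all clusters with siH19-1 was -0.02, and -0.09 under that scaling. The cause was not tested.

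Replicate numbers were shared between groups, with correlations of deviations of 0.29 between control and siH19-1 and 0.2 in the other 2 pairs of groups, and nothing in the labels says that they pair the arrays. With the replicate number as a block, 2142, 5983 and 6581 clusters passed in the 3 comparisons. Of the 983 genes past the threshold, 964 passed with the block, 385 with no filter, 321 in the fit on 4 arrays, 146 without control replicate 1, 412 without control replicate 2 and 0 without either siH19-1 array.

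H19 stood at -0.015 with median centring and at -0.045 with scaling to the non-cluster rows, and from -0.075 to 0.125 with 1 array left out. H19 did not pass in any of these and could not be fitted with the filter at 6. The signal of H19, near 5, limits what change could be seen. Of 219 other named genes, 191 passed. Of these 0 turned direction, which only another scaling could have done, since their control and siH19-1 arrays did not overlap. Without a siH19-1 array 0 of the 191 passed, in fits that take the lone array to vary like the other groups. The median size of the 983 changes, 0.81, was then 0.79 without replicate 1 and 0.82 without replicate 2. In the fit on 4 arrays 84 of the 191 did not pass, and 3 did not with the block.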

Other observations

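By gene class, protein-coding genes gave 397 rises and 554 falls of 9496 tested (10%). Long noncoding RNA genes gave 3 rises and 10 falls of 346 (3.76%), microRNA genes 2 rises of 305 (0.656%), snoRNA genes 2 rises and 1 fall of 136 (2.21%), pseudogenes 1 of each of 523 (0.382%) and transcribed pseudogenes 4 rises and 5 falls of 292 (3.08%). The shares were not tested against each other. Clusters without a gene symbol gave 203 rises and 284 falls of 12172, and clusters with several symbols 22 rises and 20 falls of 834.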
